A study of Mus musculus with 2 samples.

Results

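Transcripts of a ligand and receptor system were followed through cells sorted from fracture callus and from intact bone with its muscle. The system holds the ligands Gas6 and Pros1 and the TAM receptors Axl, Mertk and Tyro3. They were chosen by symbol, with earlier results of these data known, and are 5 of the 32285 genes in the count matrices. Because that choice knew the pattern, the levels below are given as descriptions, and no test is attached to them.

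Gas6 and Pros1 (protein S) are secreted proteins that carry vitamin K-dependent Gla residues. Through these they bind phosphatidylserine on the surface of dying cells and platelets, while their other end binds a TAM receptor tyrosine kinase on a neighbouring cell. Gas6 is a ligand of every TAM receptor, whereas Pros1 is known as a ligand of Mertk and Tyro3 and, in plasma, as an anticoagulant cofactor. Mertk is best known from resident macrophages that clear apoptotic cells without inflammation. Axl is known from fibroblasts, endothelium and activated myeloid cells, and Tyro3 chiefly from the nervous system.

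The cells came from Clec3b.creERT2; Ai14.R26.tdTomato mice, in which tamoxifen labels cells that express Clec3b (and their later progeny) with tdTomato. Tamoxifen was given 2 weeks before a stabilized femoral fracture, the mice were 6 weeks old at surgery, and tissue was taken 3 weeks after it. One library (intact) held sorted tdTomato+ cells from the unfractured femoral diaphysis with its muscle, and the other (callus) held sorted cells from the fracture callus. Each library was made from the pooled tissue of 3 littermates, so there was 1 library per condition and no difference between the libraries could be tested. All intervals below are exact 95% intervals for counting error only, Poisson for levels and Clopper-Pearson for shares of cells, and cells are not replicates.

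After removal of barcodes with fewer than 500 genes or more than 10% mitochondrial UMIs (unique transcript counts), 1207 intact and 3295 callus cells remained, with medians of 4939 and 6843 UMIs per cell. The libraries shared 1 barcode. The mice are labelled male. Among fibroblasts of 5000 or more UMIs, however, Xist was detected in 97.5% of the 202 from intact tissue and 98.2% of the 166 from callus, and 4 Y-linked genes held 1 UMI in all analysed cells, which goes against the label in both libraries alike. Cells were sorted into types by marker lists, and a type name below means cells that lead in that list. The stromal cells were split into fibroblasts that lead in markers of the Pi16 or Col15a1 state, tendon-type fibroblasts, bone marrow stromal cell (BMSC)-like and osteoblast-like cells, and stromal cells with no leading subtype, whose top genes by fold (Cilp, Thbs4, Mgp) overlapped with those of the tendon-type cells. The study's text regards blood and endothelial cells in these libraries as cells that passed the sort without tdTomato, which was not analysed here. Clec3b had 0 UMIs in the intact and 1 UMI in the callus macrophages, against 1611 and 1628 CPM (UMIs per 1000000 UMIs) in Pi16-type fibroblasts.

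Gas6 lies on chromosome 8 (13465374 to 13494490, minus strand, GRCm38), Pros1 on chromosome 16 (62854307 to 62929346, plus strand), Axl on chromosome 7 (25757273 to 25788705, minus strand), and Mertk and Tyro3 on chromosome 2 (128698956 to 128802894 and 119797733 to 119818104, plus strand). Gas6 overlaps Tmem255b and Mertk overlaps Gm14011 on the opposite strand, and the 3′ kit keeps the strand. Mertk also overlaps Gm23172, a small nucleolar RNA gene, on its own strand, which the strand does not tell apart. Over all analysed cells the files held 1899 UMIs of Gas6 in 462 cells, 832 of Pros1 in 510 cells, 2597 of Axl in 630 cells, 135 of Mertk in 86 cells and 16 of Tyro3 in 14 cells. Axl, Gas6 and Pros1 could thus be described by cell type, Mertk in few types, and Tyro3 hardly at all.

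Gas6 was highest in the BMSC-like cells of the callus. These cells, gated by marrow stroma genes such as Lepr, Cxcl12, Adipoq and Kitl, were absent from the intact gate (0 cells) and carried 539 Gas6 UMIs in 33 cells, or 2519.9 CPM (2312 to 2742). Every one of the 33 cells had Gas6, from 5.70 to 102.6 UMIs per 10000 UMIs with a median of 26.5, and Gas6 was among their 10 top genes by fold over all other cells. The cell with the most held 6.86% of the UMIs. The study's text reports that uninjured marrow held no tdTomato+ cells. Gas6 in the marrow stroma of intact bone was thus not measured in these sorted libraries.

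**Figure D1:**
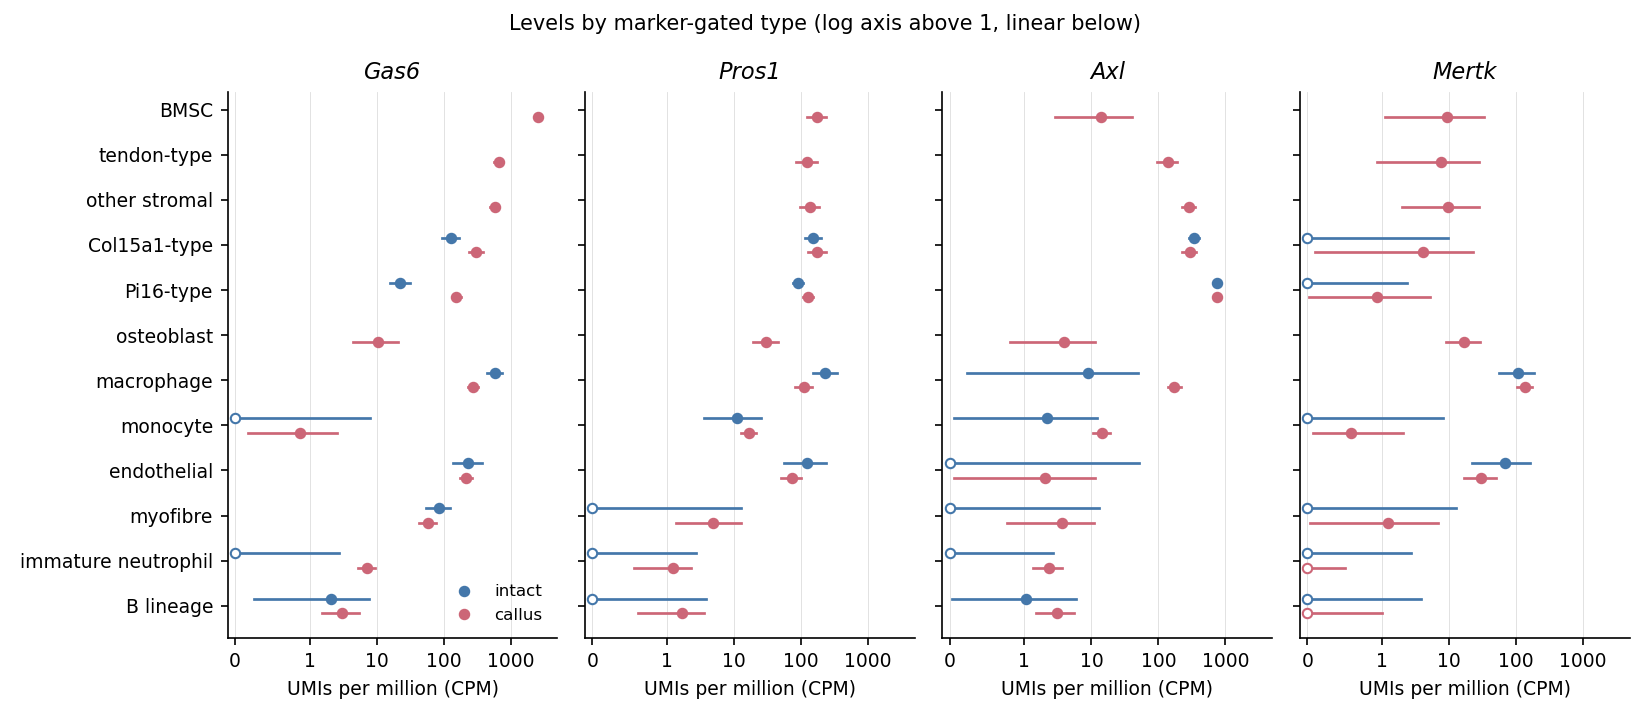
CPM of Gas6, Pros1, Axl and Mertk (horizontal axes, log above 1 and linear below) in marker-gated types with at least 20 cells in a library, for the intact (blue) and callus (red) library. Points are summed UMIs, lines exact Poisson 95% intervals, and open points stand for 0 UMIs. Gas6 peaked in BMSC-like cells at 2519.9 CPM, Axl in Pi16-type fibroblasts at 750.4 CPM in intact and 736.7 CPM in callus, and Mertk in macrophages.

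Below the BMSC-like cells, callus Gas6 was lower in each fibroblast type. It was 664 CPM (569 to 770) in 21 tendon-type fibroblasts, all 21 of which had a UMI, and 579 CPM (497 to 670) in 43 stromal cells without a leading subtype, and these values do not differ beyond their intervals. Col15a1-type fibroblasts held 308 CPM (242 to 387) and Pi16-type fibroblasts 155 CPM (132 to 181). Osteoblast-like cells, also confined to the callus but for 1 cell, stood at 10.5 CPM (4.52 to 20.6) with a UMI in 5 of 34 cells, although their median depth of 24497 UMIs was the highest of the stromal types. The BMSC-like and osteoblast-like cells, both of the skeletal lineage, were thus the highest and the lowest of the callus stromal types for this ligand.

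In the intact library Gas6 was again higher in the Col15a1-type than in the Pi16-type fibroblasts, and higher still in the stromal cells without a leading subtype. It was 526 CPM (396 to 685) in 17 stromal cells without a leading subtype, 515 CPM (281 to 864) in only 4 tendon-type cells, 127 CPM (93.7 to 168) in 52 Col15a1-type and 22.5 CPM (15.7 to 31.4) in 217 Pi16-type fibroblasts. The intervals of the first 2 values overlap widely, and those of the other neighbours do not overlap.

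Pi16-type fibroblasts, the Clec3b-rich state that both libraries held in numbers, had more Gas6 in the callus. It was 35 UMIs in 217 intact cells and 166 UMIs in 135 callus cells, a ratio of callus to intact of 6.88 (4.76 to 10.2). Among all 9024 genes with at least 20 UMIs in this type, 3.91% were at least 2-fold higher and 2.79% at least 2-fold lower in callus. Since the genes were chosen with this contrast known, nothing is read from Gas6 being one of them. The share of cells with a Gas6 UMI was 11.1% of 217 and 34.1% of 135. After each cell was thinned to 2000 UMIs, which left out 21 and 12 shallower cells, it was 4.08% (1.78 to 7.88) and 20.3% (13.6 to 28.5). B-lineage cells, which should lack the gene, gave 0 of 247 and 0.183% of 545 thinned cells, at unthinned median depths of 2872.5 and 3307 UMIs against 7399 and 7542 in the fibroblasts. The median Pi16-type cell had 0 Gas6 UMIs in either library, and the callus level rested on the 46 cells with a UMI. It depended on how firmly the cells led in the Pi16 list: with the required lead doubled, the callus level was 93.2 CPM and the intact level 16.2 CPM, and the ratio was 5.77 (3.63 to 9.50).

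The ratio was of similar size on either side of a split of these cells by an inflammatory score (Ptx3, Has1, Tnfaip6, Il6 and Cxcl1). Cells at or above the cut held 25.4 CPM of Gas6 in intact and 167 CPM in callus, a ratio of 6.56 (4.27 to 10.4). Cells below it held 16.3 and 136 CPM, a ratio of 8.35 (3.95 to 20.3). The intervals of the ratios overlap widely, and the difference between the sides was not tested.

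Col15a1-type fibroblasts showed a smaller difference of the same sign, 127 CPM in intact and 308 CPM in callus, with a ratio of 2.43 (1.67 to 3.57). In this type 7.15% of 4854 genes were at least 2-fold higher and 5.77% at least 2-fold lower in callus. One callus cell held 21.6% of the 74 UMIs, and without the cell of most UMIs in each library the ratio was 2.12 (1.41 to 3.20).

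Macrophages went the other way. The macrophage-like cells (gated by C1qa, C1qb, C1qc, Mrc1, Folr2 and others) held 65 Gas6 UMIs in 25 intact cells, or 580 CPM (447 to 739), and 131 UMIs in 89 callus cells, or 278 CPM (233 to 330). The ratio of callus to intact was 0.480 (0.354 to 0.657). After thinning, 68.2% (45.1 to 86.1) of 22 intact and 40.5% (29.3 to 52.6) of 74 callus cells had a UMI. In this type 12.2% of 4256 genes were at least 2-fold higher and 7.24% at least 2-fold lower in callus. The 8 stromal markers summed to 53.5 and 63.7 CPM in these macrophages, against 22456 and 35595 CPM in the Pi16-type fibroblasts of the same libraries, and the ratio in macrophages with no stromal marker UMI was 0.438 (0.311 to 0.621). The median macrophage held 5.36 Gas6 UMIs per 10000 in intact and 1.44 in callus, and the highest 16.8 and 37.2. The ratio was nearer 1, at 0.769, when every cell was weighted alike. It was 0.206 (0.153 to 0.281) when macrophages were taken from clusters, whose 121 callus cells included 10 osteoclast-like and 21 ungated cells.

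Endothelial-like cells (Cdh5, Kdr, Flt1) held 233 CPM (136 to 374) of Gas6 in 29 intact and 218 CPM (179 to 263) in 100 callus cells, a ratio of 0.934 (0.557 to 1.66) that allows a change of either sign. In this type 12.7% of 4974 genes were at least 2-fold higher and 6.39% at least 2-fold lower in callus. Myofibre-like cells, at median depths of 2568 and 2031 UMIs, held 84.2 CPM (53.9 to 125) of it in intact tissue, with 57.9 CPM (42.5 to 77.0) in callus. The 8 macrophage markers summed to 0 CPM in the intact and 346 CPM in the callus myofibre-like cells, and their part in the callus value was not tested. B-lineage cells were at 2.10 CPM (0.255 to 7.60) and 3.03 CPM (1.51 to 5.42).

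Other callus blood cells held Gas6 in single cells. Of 53 UMIs in 553 immature neutrophil-like cells, 32 lay in 1 cell, and that cell also held 169 UMIs of stromal and BMSC markers where the median cell held 0. Of 29 UMIs in 237 granulocyte-monocyte progenitor-like cells, 25 lay in 1 cell, which held 409 such UMIs where the median was 1. Monocyte-like cells had 3 UMIs in 347 cells. What part stromal RNA or a joined stromal cell has in these cells was not tested.

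Pros1 was spread more evenly over the same stromal cells. In the callus it was 175 CPM (126 to 237) in Col15a1-type fibroblasts, 173 CPM (122 to 238) in BMSC-like cells, 136 CPM (97.9 to 184) in stromal cells without a leading subtype, 127 CPM (107 to 150) in Pi16-type and 123 CPM (84.0 to 173) in tendon-type fibroblasts. No neighbours in this order differ beyond their intervals. Osteoblast-like cells held 30.1 CPM (19.1 to 45.2), below each of these. In the intact library it was 154 CPM (117 to 198) in Col15a1-type and 89.5 CPM (75.3 to 106) in Pi16-type fibroblasts.

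Between the libraries Pros1 moved little in the fibroblasts. The ratio of callus to intact was 1.42 (1.11 to 1.81) in the Pi16-type and 1.14 (0.748 to 1.73) in the Col15a1-type cells, neither of which reached 2-fold. The first does not hold when types are taken from clusters: in the Pi16-type clusters it was 0.998 (0.765 to 1.297). After thinning, 15.3% (10.6 to 21.1) of intact and 17.9% (11.6 to 25.8) of callus Pi16-type cells had a Pros1 UMI, against 0 of 247 and 0.183% of 545 B-lineage cells.

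Macrophages had less Pros1 in the callus, 110 CPM (82.5 to 145) in 89 cells against 232 CPM (151 to 340) in 25 intact cells, with a ratio of 0.476 (0.292 to 0.795), or 0.199 (0.122 to 0.332) in the macrophage clusters. The share of thinned cells was 18.9% (10.7 to 29.7) in callus and 40.9% (20.7 to 63.7) in intact. Both ligands thus stood lower in the callus macrophages, by ratios whose intervals overlap. Endothelial-like cells held 124 CPM (56.5 to 234) of Pros1 in intact tissue, with 72.7 CPM (50.9 to 101) in callus, a ratio of 0.588 (0.278 to 1.39). Monocyte-like cells, in which Gas6 was near the background, held 57 Pros1 UMIs in 47 of 347 callus cells, or 16.6 CPM (12.6 to 21.5), and 10.9 CPM (3.54 to 25.5) in 50 intact cells. B-lineage cells were at 1.65 CPM (0.606 to 3.60) in callus.

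**Figure D2:**
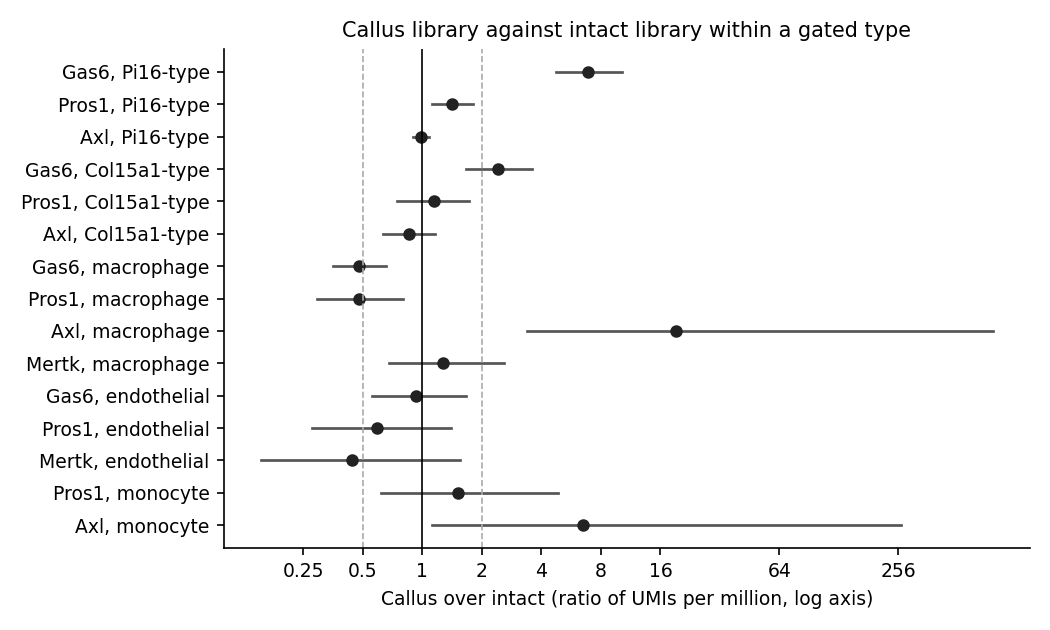
Callus over intact ratio of CPM (log axis) for the ligands and receptors in 5 gated types, where at least 20 UMIs were found in the type and 1 or more in each library. Points are the ratios of summed UMIs and lines their exact 95% counting intervals, the solid line marks 1 and the dashed lines 2-fold. Gas6 lies at 6.88 in Pi16-type fibroblasts and at 0.480 in macrophages, Axl at 0.982 and 19.3 in the same types.

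Axl was highest in the Pi16-type fibroblasts. In the intact library 210 of 217 cells held 1165 UMIs, or 750.4 CPM (708 to 795), and in the callus 132 of 135 cells held 788 UMIs, or 736.7 CPM (686 to 790). The ratio was 0.982 (0.896 to 1.08). The median cell held 7.01 Axl UMIs per 10000 in intact and 7.21 in callus. After thinning, 76.0% (69.4 to 81.8) and 79.7% (71.5 to 86.4) of cells had a UMI, against 0.405% of 247 and 0.55% of 545 B-lineage cells. Over all cells of this fibroblast state the interval for the receptor thus spans 1, whereas that for its ligand Gas6 lies above it. In the split by inflammatory score, the Axl ratio below the cut was 0.836 (0.716 to 0.975), an interval that excludes 1. At or above the cut it was 1.068 (0.952 to 1.197), and the difference between the sides was not tested. Over all fibroblasts, subtypes together, the Axl ratio was 0.816 (0.7505 to 0.887). The part of the subtypes in that value was not tested.

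Across the callus stromal types Axl ran in the reverse order of Gas6. Below the Pi16-type cells stood the Col15a1-type fibroblasts at 292 CPM (227 to 369), stromal cells without a leading subtype at 281 CPM (225 to 347), tendon-type fibroblasts at 138 CPM (96.7 to 191), BMSC-like cells at 14.03 CPM (2.89 to 41.0) and osteoblast-like cells at 3.93 CPM (0.809 to 11.5). The Col15a1-type cells and those without a subtype do not differ beyond their intervals, nor do the BMSC-like and osteoblast-like cells. Of the 33 BMSC-like cells 3 had an Axl UMI, and of 31 cells thinned to 2000 UMIs 0 did (0 to 11.2%), a depth at which low levels go unseen. The osteoblast-like cells are the exception to the reverse order, with little of either gene. In the intact library Axl was 339 CPM (283 to 403) in Col15a1-type cells, 230 CPM (147 to 342) in stromal cells without a subtype and 73.5 CPM (8.90 to 266) in the 4 tendon-type cells. The Col15a1-type ratio of callus to intact was 0.861 (0.634 to 1.16).

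**Figure D3:**
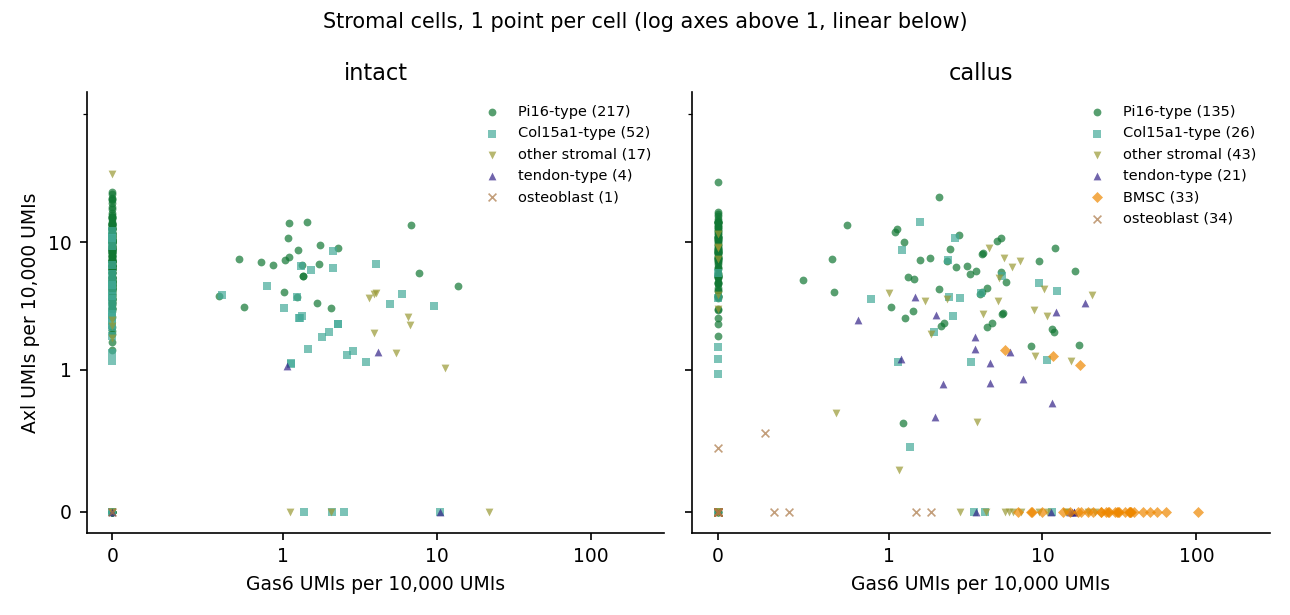
Gas6 (horizontal) and Axl (vertical) UMIs per 10000 UMIs in each stromal cell of the intact (left) and callus (right) library, log above 1 and linear below, with the number of cells of each type in the key. Most Pi16-type fibroblasts lie at the left edge with Axl and no Gas6, 46 of 135 in the callus lie to its right, and the 33 callus BMSC-like cells lie along the bottom with Gas6 between 5.70 and 102.6 and Axl in 3 of them.

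Axl in macrophages was found in the callus. It was 1 UMI in 25 intact cells, or 8.92 CPM (0.226 to 49.7), and 81 UMIs in 41 of 89 callus cells, or 172 CPM (137 to 214), a ratio of 19.3 with a wide interval (3.37 to 771). After thinning, 17.6% (9.70 to 28.2) of 74 callus cells and 0 of 22 intact cells had a UMI (0 to 15.4%), although 1 of 25 unthinned intact cells did. Pi16-type fibroblasts of the same library held 736.7 CPM of Axl with 35595 CPM of the 8 stromal markers, whereas the callus macrophages held their Axl with 63.7 CPM of those markers. What part stromal RNA has in the macrophage Axl was not tested. Monocyte-like cells showed the same direction at a lower level, 1 UMI in 50 intact cells (2.18 CPM, 0.0552 to 12.2) and 49 UMIs in 37 of 347 callus cells (14.3 CPM, 10.5 to 18.8), a ratio of 6.53 (1.12 to 263). Of 8881 genes with at least 20 UMIs in monocyte-like cells, 1014 were at least 2-fold higher and 235 at least 2-fold lower in callus. Endothelial-like cells held 1 Axl UMI in 100 callus and 0 in 29 intact cells, and the 0 allows up to 41.2 CPM. The callus endothelial-like cells thus had both ligands with Axl at 2.02 CPM, no higher than the B-lineage cells at 3.03 CPM.

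Mertk, known as the clearance receptor of resident macrophages, was highest in macrophages of both libraries, with an intact interval overlapping that of endothelial-like cells. Of its 135 UMIs, 12 were in 8 of 25 intact macrophages, or 107 CPM (55.3 to 187), and 64 in 29 of 89 callus macrophages, or 136 CPM (105 to 174), a ratio of 1.27 (0.679 to 2.59). In the macrophage clusters the ratio was 0.564, on the other side of 1, so that no direction is given for Mertk. After thinning, 18.2% of 22 and 16.2% of 74 macrophages had a UMI. Endothelial-like cells held 68.6 CPM (22.3 to 160) of Mertk in intact tissue, with 30.3 CPM (16.9 to 49.9) in callus, on 5 and 15 UMIs. Their ratio of 0.441 (0.152 to 1.55) is past 2-fold with an interval that spans 1. B-lineage cells held 0 Mertk UMIs in 268 intact and 573 callus cells.

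The intact stromal cells held 0 Mertk UMIs in 291 cells, which allows up to 1.44 CPM. In the callus 13 UMIs lay in 9 of 34 osteoblast-like cells, or 17.0 CPM (9.06 to 29.1), with at most 1.42 UMIs per 10000 in a cell. Macrophage markers summed to 44.5 CPM in the osteoblast-like cells, against 12374 CPM in the callus macrophages with 136 CPM of Mertk. What part macrophage RNA has in the osteoblast-like Mertk was not tested. Pi16-type and Col15a1-type fibroblasts of the callus had 1 Mertk UMI each. Tyro3, which is known chiefly from nerve cells, had 15 of its 16 UMIs in stromal cells. In Col15a1-type fibroblasts these were 2 UMIs in 52 intact cells, or 5.30 CPM (0.641 to 19.1), and 6 UMIs in 26 callus cells, or 25.01 CPM (9.18 to 54.4), a ratio of 4.72 with an interval (0.845 to 47.9) that spans 1.

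Where each library kept its ligand and receptor transcripts follows from these levels and from how many cells of a type were sorted. Of 272 Gas6 UMIs in the intact library, stromal cells held 55.9% (49.8 to 61.9) and macrophages 23.9% (19.0 to 29.4), though the macrophages gave 1.49% of all UMIs. Of 1627 in the callus, stromal cells held 70.0% (67.7 to 72.2), and the 33 BMSC-like cells alone 33.1% (30.8 to 35.5) with 0.624% of all UMIs. Of the Axl UMIs, stromal cells held 98.6% (97.8 to 99.1) of 1338 in the intact and 78.4% (76.0 to 80.6) of 1259 in the callus library, the Pi16-type cells 87.1% and 62.6%. Callus macrophages held 6.43% and monocyte-like cells 3.89% of Axl, with 1.37% and 10.0% of all callus UMIs. Stromal cells held 79.9% (74.7 to 84.5) of 274 Pros1 UMIs in intact and 55.9% (51.7 to 60.1) of 558 in callus. They gave 27.8% of all UMIs in intact and 8.33% in callus. Monocyte-like cells held 10.2% of the callus Pros1 UMIs, near their 10.0% of all callus UMIs. Macrophages held 12 of 17 and 64 of 118 Mertk UMIs. Fewer sorted cells of a type and less RNA in each cannot be told apart in these shares.

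**Figure D4:**
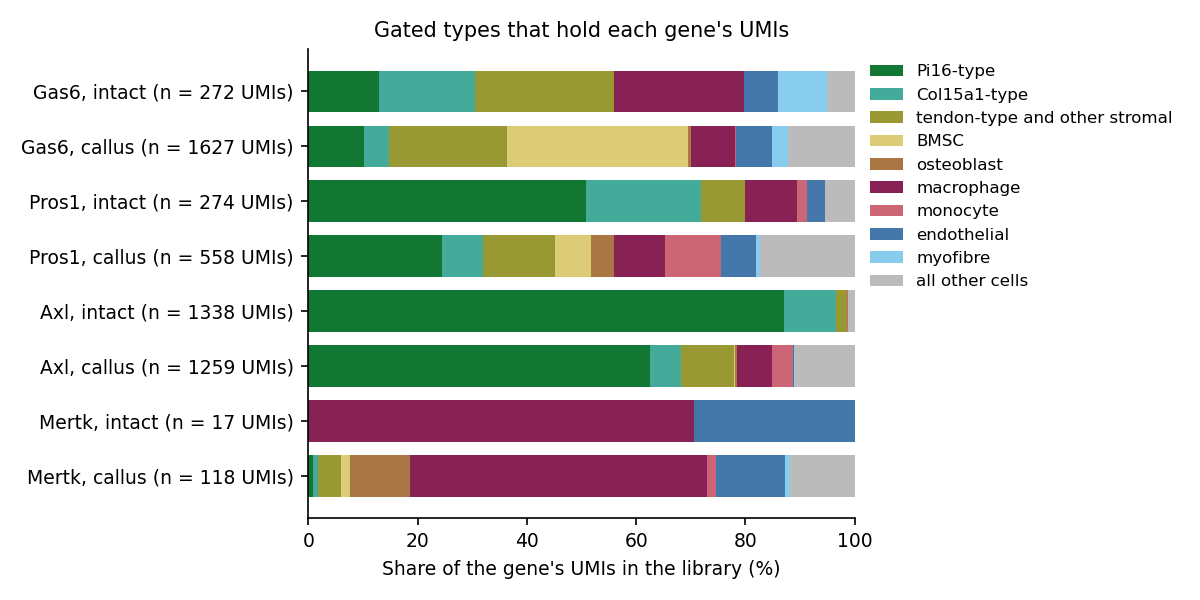
Share of each gene's UMIs (horizontal axis, %) that lies in each gated type, with a bar for each gene and library and the number of UMIs beside it. In the callus library, BMSC-like cells held 33.1% of Gas6, and macrophages 6.43% and monocyte-like cells 3.89% of Axl. Marrow stroma of intact bone carried no tdTomato label per the study's text. In the intact library of sorted cells, Axl is almost all stromal (98.6%). Monocyte-like cells gave 10.0% of all callus UMIs, and stromal cells 27.8% of all intact and 8.33% of all callus UMIs.

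Some fibroblasts held UMIs of both Gas6 and Axl. Axl was found in nearly every Pi16-type cell, 210 of 217 and 132 of 135, so that cells with Gas6 would mostly hold it too. Every Pi16-type cell with a Gas6 UMI also had an Axl UMI, 24 of 24 in intact and 46 of 46 in callus, before thinning. In cells thinned to 2000 UMIs, 2.55% (0.833 to 5.85) of 196 intact and 15.4% (9.56 to 23.1) of 123 callus Pi16-type cells held both. Over all fibroblasts the share with both was 4.17% (2.10 to 7.33) of 264 and 15.0% (10.5 to 20.7) of 206. In callus fibroblasts Axl without Gas6 was found in 99, Gas6 without Axl in 44 and both in 31 of the 206 cells. BMSC-like cells were mostly Gas6 cells without an Axl UMI: 30 of 31 thinned cells held Gas6, and 0 held Axl. Before thinning, 3 of 33 held both.

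Some macrophages held a ligand together with Mertk. Gas6 and Mertk were found together in 6 of 25 intact and 21 of 89 callus cells before thinning, and in 3 of 22 and 7 of 74 thinned cells. For Pros1 and Mertk it was 3 of 25 and 13 of 89 cells before thinning, and 1 of 22 and 6 of 74 thinned cells. Axl and Mertk shared 14 of 89 callus macrophages and 0 of 25 intact ones, and 3 of 74 thinned callus cells. Gas6 with Axl was found in 19 of 89 callus macrophages, or 2 of 74 after thinning. With so few UMIs per cell, a cell without a UMI is not shown to lack the gene.

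Nearly all fibroblasts carried Clec3b transcripts, as 284 of 290 intact and 210 of 225 callus fibroblasts had a UMI of it. Those with one held 72.7 and 310 CPM of Gas6 and 641 and 556 CPM of Axl in intact and callus. The 6 intact fibroblasts without one held 242 CPM (49.8 to 706) of Gas6 on 3 UMIs and 403 CPM (131 to 940) of Axl on 5. Their median depth was 1042.5 UMIs, against 7500.5 in the intact fibroblasts with one. The 15 callus fibroblasts without one held 384 CPM (286 to 505) of Gas6 and 75.3 CPM (36.1 to 138) of Axl, at a lower median depth of 5540 UMIs against 7850.5. Only 1 of these 15 was a Pi16-type cell, against 134 of the 210 with a Clec3b UMI. The part of this difference in subtypes was not tested.

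Other genes that followed the same pattern over types were sought among 11903 genes with at least 100 UMIs, over 30 points, each a type in a library with at least 20 cells. The members and the marker genes of the gates were left out of this search, so that a marker gene of like pattern could not be listed. As likeness, Pearson's r of log2(CPM + 10) was taken, a description over points that share libraries and lineages. Gas6 was most like Zcchc14 (r = 0.88), Igf1 (0.87), the insulin-like growth factor of stroma and macrophages, and Zc2hc1a (0.87). Pros1 was most like Fcgrt, the neonatal Fc receptor (0.95), Sash1 (0.95) and Lima1 (0.94), Axl like Anpep, the surface aminopeptidase CD13 (0.96), Ahnak2 (0.96) and Akr1b8 (0.94), and Mertk like Ednrb, the endothelin B receptor (0.92), Pltp, the phospholipid transfer protein (0.89), and Smagp (0.89). Among the members other than Tyro3, r was 0.87 for Gas6 with Pros1, 0.72 for Pros1 with Axl and 0.62 for Pros1 with Mertk. It was 0.60 for Gas6 with Mertk, 0.52 for Gas6 with Axl and 0.12 for Axl with Mertk.

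The machinery around the ligands was read from 8 lists with 71 genes, among genes with at least 20 UMIs. In Pi16-type fibroblasts the counts are read beside the 3.91% of all genes at least 2-fold higher and 2.79% at least 2-fold lower in callus, and with so few genes a list they are a description only. In the vitamin K cycle, which makes the Gla residues that Gas6 and Pros1 need, 0 of 4 genes were at least 2-fold apart, among them Vkorc1, the epoxide reductase, at 236 CPM in intact and 202 CPM in callus (0.857, 0.721 to 1.02) and Ggcx, the carboxylase, at 19.3 and 18.7 CPM. Of 4 other Gla protein genes, 1 was higher and 1 lower: Mgp, the matrix Gla protein, at 55.4 and 165 CPM (ratio 2.97, 2.28 to 3.89), and Prrg1 at 39.3 and 16.8 CPM (0.428, 0.238 to 0.734). Of 10 engulfment and lipid response genes 1 was at least 2-fold lower (Ppard, on 15 and 5 UMIs), and of 4 engulfment signals 1 was higher, Cd24a at 19.97 and 41.1 CPM (2.06, 1.27 to 3.37). Lgals3, the measured gene among the other TAM ligands, was at 31.6 and 44.9 CPM (1.42, 0.935 to 2.16). Among the 5 measured phosphatidylserine bridges and receptors, the 4 genes of phosphatidylserine exposure and the 11 genes of TAM signalling and shedding, 0 were 2-fold apart, with Adam10, a sheddase, at 83.1 and 59.8 CPM (0.720, 0.525 to 0.979) and Akt1, a kinase downstream of the receptors, at 42.5 and 78.5 CPM (1.85, 1.32 to 2.59). The list medians ran from -0.36 to 0.51 on the log2 scale, beside 0.02 for all genes.

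In macrophages the shares over all genes were 12.2% higher and 7.24% lower, so that more list genes past 2-fold than in the fibroblasts are no result about the lists. The UMI minimum was set on the summed libraries, to which callus macrophages gave 470837 UMIs and intact macrophages 112144. A gene higher in callus thus passed it more easily than one lower in callus. With a UMI required in each library instead, more of all genes were lower than higher. No direction is therefore read from the list counts and medians. Of 8 measured phosphatidylserine bridges and receptors 4 were at least 2-fold higher in callus and 0 lower, with a list median of 0.67 on the log2 scale beside 0.02 for all genes. Mfge8, another bridging protein to dying cells, was at 17.8 CPM (2 UMIs) in intact and 157 CPM in callus, a ratio of 8.81 (2.35 to 74.1), and Itgav, part of its integrin receptor, at 17.8 and 65.8 CPM (3.69, 0.939 to 31.8). The other two, named after their values were seen, were Itgb5 (2.32, 0.838 to 8.95) and Cd300lb (2.54, 0.795 to 12.97). Cd36, the scavenger receptor, was at 1034 and 542 CPM (0.524, 0.419 to 0.658) and Stab1, a receptor of phosphatidylserine, at 562 and 336 CPM (0.597, 0.443 to 0.813), both lower without reaching 2-fold. Lgals3 (galectin-3), which is also described as a Mertk ligand, was at 820 and 2035 CPM, a ratio of 2.48 (2.00 to 3.11). Of 11 engulfment and lipid response genes 2 were higher: Nr1h3, the lipid sensor LXR alpha, had 0 UMIs in intact and 44 in callus macrophages, a ratio of 3.49 with the 0 set to a floor of 3 counts and an exact lower limit of 2.72, and Abcg1, a cholesterol exporter, was at 26.8 and 99.8 CPM (3.73, 1.201 to 18.7). Of 3 engulfment brakes and signals 1 was higher, Sirpa, the receptor of the Cd47 signal, at 214 and 569 CPM (2.66, 1.75 to 4.22). Among 9 genes of TAM signalling and shedding, 3 of phosphatidylserine exposure and 1 of the vitamin K cycle 0 were 2-fold apart, with Ifnar2 at 116 and 217 CPM (1.87, 1.05 to 3.63). With 25 intact macrophages, many of these ratios rest on fewer than 10 intact UMIs.

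**Figure D5:**
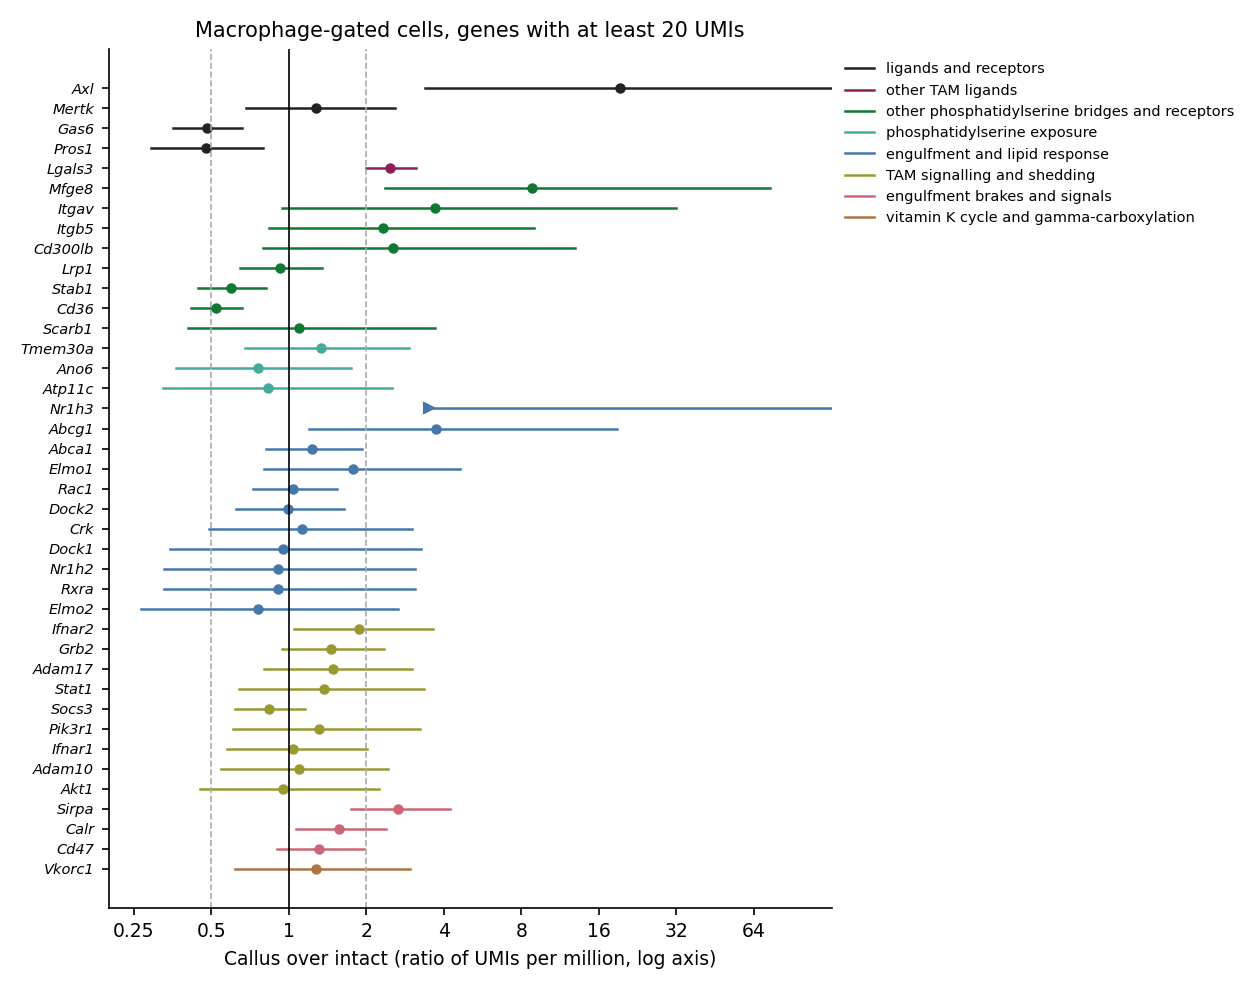
Callus over intact ratio of CPM (log axis) in macrophage-like cells for the ligands, receptors and listed genes with at least 20 UMIs, coloured by list. Points are ratios of summed UMIs and lines exact 95% counting intervals, except for Nr1h3. The arrowhead for Nr1h3 marks its ratio of 3.49 with the 0 intact UMIs set to 3 counts. Its line runs from there to the edge of the axis and is no interval, as the exact lower limit is 2.72. The line for Axl runs past the axis, and dashed lines mark 2-fold.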

How the data were processed

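The cells were sequenced with the 10× Chromium 3′ kit. The authors ran Cell Ranger (version 6.0.0 per the file headers; genome build mm10 per the labels) and deposited counts, as whole UMI counts per gene and barcode for each library. The study's methods also name Seurat, whose output was not used here.

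Barcodes below 500 genes or above 10% mitochondrial UMIs were dropped (665 of 1872 intact and 692 of 3987 callus), which left 7518795 and 34287541 UMIs. A cell was scored for 21 lineage lists as the mean of log2(1 + UMIs per 10000), and named for its leading list where the score and the lead over the next list both reached 0.5 and 3 or more markers were detected, while 87 intact and 336 callus cells stayed without a name. Stromal cells were scored again for 5 subtypes by the same rule. Near the lead (within 0.25) lay 1 intact and 11 callus Pi16-type cells, 1 and 7 macrophages and 1 BMSC-like cell. Of the stromal cells without a leading subtype, 8 of 17 intact and 20 of 43 callus cells lay near it. The score, lead and inflammatory cut of 1 were set after cell values were seen, and members, lists and comparisons were chosen with earlier results of these data known. No doublets were removed in the values reported.

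Levels are CPM of summed UMIs. Thinned shares draw 2000 UMIs per cell without replacement (seed 1). A gene counts as called when at least 2-fold apart with at least 20 UMIs in the summed libraries; a sum of 0 enters at 3 counts. The fold rule and interval were tested on simulated Poisson sums, which do not hold the uneven spread of UMIs over cells. Intervals and limits of a 0 (3 counts) cover counting error only. Columns of samples outside the series numbered 0. Named genes are the 5 members, of each pathway list up to 2 with the highest and 2 with the lowest ratio, and the 3 genes most like each member with at least 100 UMIs. Members and gate markers were left out of the search for like genes. Positions are from GENCODE for GRCm38. Protein sequences were not analysed here. Alternatives were other filters, a stricter gate, Leiden clusters made without the 5 genes (scanpy 1.11.5, leidenalg 0.10.2), removal of the highest doublet scores, per-cell means, median scaling, other thinning and UMI minimums and, added after the data were seen, leaving out the cell of most UMIs, macrophages with a stromal marker UMI, and splits by Clec3b or by Folr2, Mrc1 and Cd163 UMIs. The last split was void, as all 25 intact and 83 of 89 callus macrophages had one. Python 3.11.15, numpy 2.4.6 and scipy 1.17.1 were used.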

Additional observations from a re-analysis of the deposited data

Results flagged for a closer look

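The ratio of callus to intact lay on opposite sides of 1 in fibroblasts and macrophages for both ligands, and the difference between the cell types was not tested. For Gas6 it was 6.88 in Pi16-type fibroblasts and 0.480 in macrophages. For Pros1 it was 1.42 and 0.476, and the first was 0.998 when types were taken from clusters.

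Ligand UMIs were also found in the barcodes removed before analysis, with more in the callus. Gas6 stood at 21.8 CPM (16.4 to 28.6) over 692 removed callus barcodes, on 53 UMIs, and at 2.18 CPM (1.04 to 4.004) over 665 removed intact barcodes. Pros1 stood at 3.71 CPM (1.70 to 7.04) on 9 UMIs, against 0.435 CPM (0.0527 to 1.57) on 2 UMIs.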

How the results depend on the processing

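In all, 51 results were recomputed under 13 alternatives, which gave 365 values, of which 312 stayed within the interval of the reported value or within 1.5-fold for a count, 52 lay outside and, among ratios whose interval excluded 1, 1 changed direction: Pros1 in Pi16-type fibroblasts, 0.998 with Leiden clusters. Ratios whose interval spans 1 could cross it, as Mertk did in the macrophage clusters at 0.564. Those clusters gave 0.206 for Gas6 and 0.199 for Pros1. They held 121 callus cells, of which 85 were gated macrophages with 41.5% of the UMIs, 10 were osteoclast-like with 29.96% and 21 had no gate with 25.4%, while all 22 intact cells were gated macrophages. The mean of per-cell CPM gave 0.769 for Gas6 in macrophages, and the cause was not tested. Genes at least 2-fold higher and lower in Pi16-type fibroblasts numbered 353 and 252, against 119 and 93 with at least 50 UMIs and 1173 and 776 with a UMI in each sum. In macrophages they numbered 519 and 308, against 139 and 95, 923 and 1694, and 1158 and 974 in clusters. Tendon-type cells had no cluster, and without the cell of most UMIs, or without cells with a stromal marker UMI, the intact macrophages had 0 Axl UMIs and no ratio. With 1 library per condition no library could be left out. No paired analysis was possible because each condition had 1 library. The 25 intact macrophages limit every ratio in that type.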
